A study of Zea mays with 12 samples.

Results

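Trihelix TF 22 (Zm00001d014938) and Homeobox TF 41 (Zm00001d017422) are a pair of maize transcription factor genes chosen by their counts in the ABA libraries, in which both were lower in mop1-1 than in WT seedlings. They are 2 of the 38444 features in the table of gene counts and 2 of the 26401 features that passed the filter on low counts. Because their levels in the ABA libraries chose them, every value of the pair that uses those libraries is given here as a description, without a p-value. Only mop1-1 MS against WT MS was tested for the pair, and that test is not wholly independent of the choice: the study's table from which both genes come was drawn from genes of the ABA comparison after those shared with the MS comparison had been set aside, so that a gene called in MS by the study could not have entered it. Directions follow the sample labels, so that lower means lower in the libraries labelled mop1-1. The same table of the study marks both genes as up, and its supplementary lists mark them as down in the ABA comparison. The paper's text states the up and down counts of the genes unique to that comparison in one order and later in the reverse. Which convention the table follows is not given in the sources used here.

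The libraries came from seedlings of B73 into which mop1-1 had been introgressed, and compared homozygous mop1-1 plants with homozygous WT siblings from the self-pollination of a heterozygous plant. At the V3 stage the seedlings were taken out of soil and their roots were placed for 1 h in liquid Murashige and Skoog medium that held 50 µM ABA (the ABA treatment) or lacked the hormone (MS), after which the roots were removed and the shoots frozen. The MS control therefore also went through uprooting and immersion. Each of the 4 groups (WT MS, WT ABA, mop1-1 MS and mop1-1 ABA) had 3 libraries, described as biological replicates, and the sum of counts per library was 38295994 to 65574775.

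MOP1 is an RNA-dependent RNA polymerase that acts in RNA-directed DNA methylation, in which small RNAs guide the methylation of DNA at transposons and nearby genes. Trihelix proteins are plant transcription factors first known for binding GT elements in the promoters of light-regulated genes, and in Arabidopsis the trihelix protein GTL1 is known for its part in stomatal development and water use. Homeobox proteins bind DNA through a homeodomain, and those of plants include the KNOX proteins of the shoot meristem and the HD-Zip proteins, among which Arabidopsis ATHB7 and ATHB12 are induced by ABA and drought. The class of Homeobox TF 41 was not available from the sources used here. In the ABA pathway, protein phosphatases of type 2C (PP2C) hold back signalling until the hormone receptors bind them, and bZIP factors act on ABA-responsive genes.

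Levels are given as CPM, the count scaled to the normalized size of its library. CPM does not correct for transcript length, so the levels of one gene are not set against those of the other. Because the RNA came from whole shoots, fewer cells that express a gene and less of its RNA in each cell cannot be told apart.

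Trihelix TF 22 was measured at 11.1, 16.7 and 13.5 CPM in the WT MS libraries (replicates 1, 2 and 3) and at 21.7, 20.0 and 21.5 CPM in WT ABA. In mop1-1 it was at 9.50, 8.76 and 9.18 CPM in MS and at 9.27, 10.1 and 10.4 CPM in ABA. Every WT library lay above every mop1-1 library, the WT ABA libraries stood highest, and the mop1-1 libraries in MS and ABA overlapped. The group means were 21.1 ± 0.945 CPM in WT ABA, 13.8 ± 2.80 CPM in WT MS, 9.93 ± 0.592 CPM in mop1-1 ABA and 9.15 ± 0.371 CPM in mop1-1 MS (SD, n = 3). In that order the last neighbours, mop1-1 ABA and mop1-1 MS, did not differ beyond their spread.

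Homeobox TF 41 was measured at 66.1, 12.2 and 8.01 CPM in WT MS and at 88.9, 61.2 and 60.8 CPM in WT ABA. In mop1-1 it was at 6.99, 20.1 and 14.6 CPM in MS and at 15.8, 7.09 and 7.54 CPM in ABA. WT ABA was the highest group, but WT MS replicate 1 lay within the range of WT ABA, far above the other WT MS libraries, which were as low as the mop1-1 libraries. The group means were 70.3 ± 16.1 CPM in WT ABA, 28.8 ± 32.4 CPM in WT MS, 13.9 ± 6.57 CPM in mop1-1 seedlings with MS and 10.2 ± 4.92 CPM in those with ABA (SD, n = 3). The last 3 groups in that order overlapped each other, and without replicate 1 the mean of WT MS was 10.1 CPM (n = 2).

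**Figure D1:**
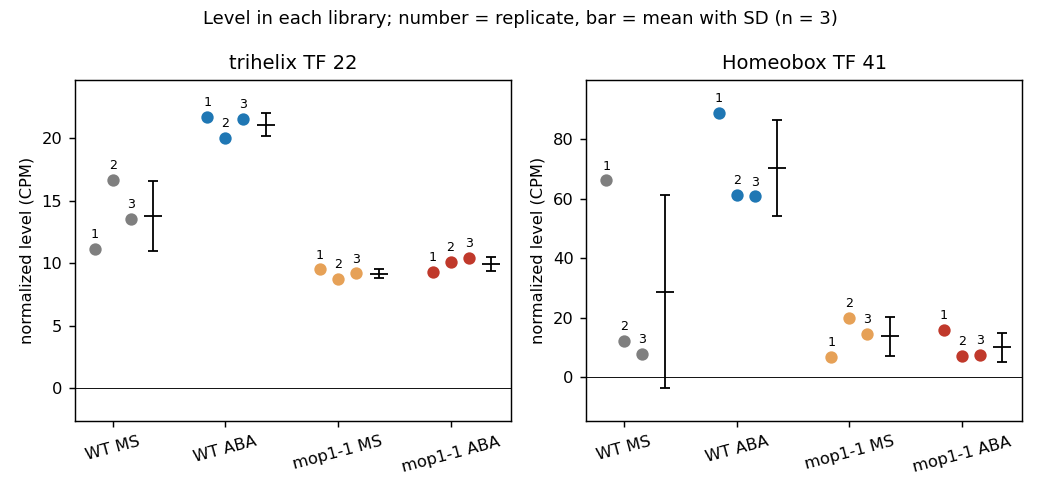
Level of trihelix TF 22 (left) and Homeobox TF 41 (right) in CPM on the vertical axis for the 3 libraries of each group, with the replicate number above each point and a bar for the mean and SD. Trihelix TF 22 lies between 20.0 and 21.7 CPM in WT ABA and at or below 10.4 CPM in mop1-1, while Homeobox TF 41 has 1 WT MS library, replicate 1, at 66.1 CPM within the range of WT ABA.

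Counting error was small beside the spread of Homeobox TF 41. The lowest count of either gene in a library was 284. It carries a counting error of 5.93% if each count is taken as an independent event. The coefficient of variation within groups was 22.9% to 112.7% for Homeobox TF 41. The range for trihelix TF 22 was 4.06% to 20.3%, and its highest value, like that of Homeobox TF 41, was in WT MS. The lowest value of trihelix TF 22, in mop1-1 MS, was no larger than the counting errors of those libraries, 4.21% to 4.29%. The fitted biological coefficient of variation was 0.153 for trihelix TF 22, with 24.1% of the features tested below it, and 0.543 for Homeobox TF 41, with 91.2% below it. Over all features the median was 0.209, so trihelix TF 22 was among the steadier features between replicates and Homeobox TF 41 among the more variable.

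Group C, mop1-1 ABA against WT ABA, is the comparison by which the genes were chosen. Trihelix TF 22 had a log2 fold change of -1.09 (standard error 0.150), a level 2.12-fold lower in mop1-1. Homeobox TF 41 had a log2 fold change of -2.79 (standard error 0.699), a level 6.91-fold lower. In both genes the libraries of the genotypes did not overlap, which held for 12.4% of all features in this direction, and nothing is read from it since the rule asked for lower levels.

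Group D, mop1-1 MS against WT MS, asks whether the genotypes differed without ABA. Trihelix TF 22 had a log2 fold change of -0.59 (standard error 0.149), a level 1.505-fold lower in mop1-1, with an unadjusted p of 0.00191 and an adjusted p of 0.114 (edgeR quasi-likelihood test, Benjamini-Hochberg). Its highest mop1-1 MS library was below its lowest WT MS library, a separation found for 5.85% of all features in this direction. It did not reach the threshold for a differentially expressed gene (DEG), set at 0.05 for the adjusted p and 0.95 for the size of the log2 fold change, and reached by 0.216% of features in this direction and 0.905% in either. Without WT MS replicate 1 the value was -0.72 with an adjusted p of 0.0368, and the DESeq2 test on all libraries gave an adjusted p of 0.0200, so the side of 0.05 on which the gene fell depended on that library and on the test, although the fold change stayed under the threshold in both.

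In Group D the log2 fold change of Homeobox TF 41 was -1.05 (standard error 0.663), with an unadjusted p of 0.140 and an adjusted p of 0.678 (edgeR quasi-likelihood test). The groups overlapped, and the direction rested on WT MS replicate 1. Without that library the log2 fold change was 0.46 (standard error 0.438, adjusted p = 0.798), which puts mop1-1 above WT and also does not pass. That neither gene was a DEG in Group D is not an independent result, given how the study's table was drawn.

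Group B, WT ABA against WT MS, gives the response of WT to the hormone. The log2 fold change of trihelix TF 22 was 0.61 (standard error 0.149), with every WT ABA library above every WT MS library, which was so for 5.98% of all features in this direction. For Homeobox TF 41 it was 1.29 (standard error 0.662) with overlapping groups, and 2.80 (standard error 0.481) without WT MS replicate 1. The standard error of Homeobox TF 41 was thus smaller with a library less.

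Group A, mop1-1 ABA against mop1-1 MS, gives the same response in the mutant. Trihelix TF 22 had a log2 fold change of 0.12 (standard error 0.149) and Homeobox TF 41 one of -0.45 (standard error 0.663). In both genes the groups overlapped and the value was smaller than its standard error.

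The difference between the genotype effects with and without ABA (Group C minus Group D), which equals the difference between the responses of mop1-1 and WT to ABA, was -0.50 for trihelix TF 22 (standard error 0.2103) and -1.74 for Homeobox TF 41 (standard error 0.935). Without WT MS replicate 1 these were -0.36 (standard error 0.190) and -3.25 (standard error 0.606). The library moved the value toward 0 in one gene and away from it in the other, and since the difference contains the ABA libraries that chose the genes it was not tested.

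**Figure D2:**
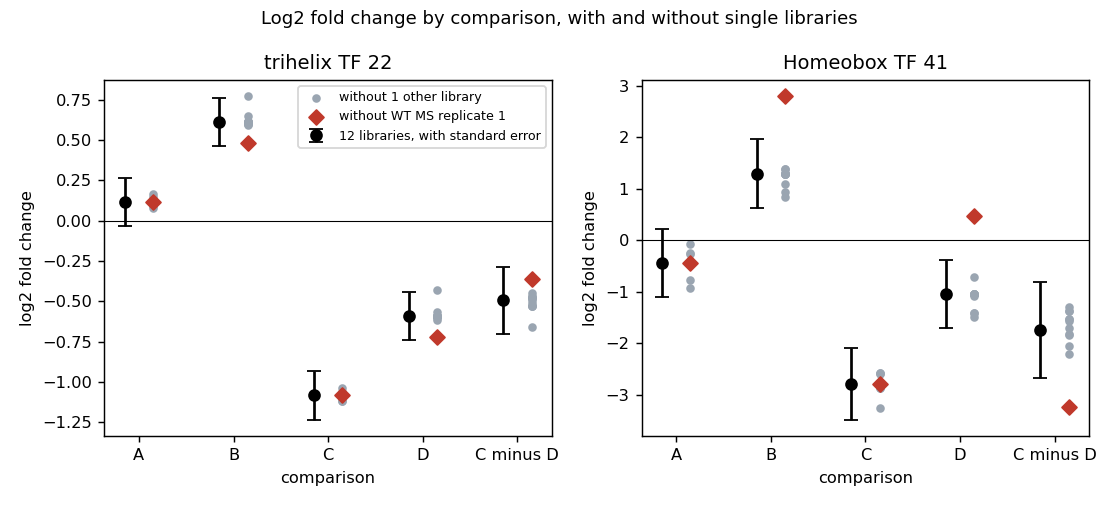
Log2 fold change on the vertical axis in Group A (mop1-1 ABA against mop1-1 MS), Group B (WT ABA against WT MS), Group C (mop1-1 ABA against WT ABA), Group D (mop1-1 MS against WT MS) and Group C minus Group D, with black points for all 12 libraries and their standard error, gray points for fits without 1 other library and red diamonds for the fit without WT MS replicate 1. Leaving out that library moves Homeobox TF 41 from 1.29 to 2.80 in Group B and from -1.05 to 0.46 in Group D, while trihelix TF 22 stays between -0.72 and -0.43 in Group D under every omission.

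Since WT MS replicate 1 bears on both genes, the same library was examined in the other regulators. The study's table of regulators with predicted targets holds both genes and 24 others, a list that the study chose on these libraries, from Group C genes without those shared with Group D. The study also required promoter homology with small RNAs that depend on MOP1, and targets predicted by a gene regulatory network. Neither was examined here. The list is not independent evidence of a direction or of a lack of calls in Group D. Of the 24 others, 21 passed the filter on low counts. In WT MS replicate 1, and in neither of the other WT MS libraries, 8 of the 21 stood at or above their lowest WT ABA library, against 0 of 21 for replicate 2 alone and 1 of 21 for replicate 3 alone (PP2C 26). Over all features tested the shares were 5.91%, 5.64% and 5.48% for replicates 1, 2 and 3. The library thus did not stand out in the count over all features. That count takes in features whatever their response to ABA, so it is no matched background for this list. Whether the library was nearer to WT ABA among features raised by ABA was not tested. WT MS replicate 1 had the lowest TMM normalization factor of the 12, at 0.877. Whether the library, its plants or its handling lies behind the values was not tested.

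The 8 regulators were PP2C A5, PP2C A9, bZIP TF 4, DREB 1A, C2C2 CO-like TF 19, a pair of AP2-EREBP genes (Zm00001d051239 and Zm00001d002867) and a CCAAT-HAP2 gene (Zm00001d041491). The bZIP TF 4 gene (Zm00001d018178) was at 120.4, 26.6 and 25.1 CPM in WT MS and at 113.7, 81.6 and 92.8 CPM in WT ABA. PP2C A5 (Zm00001d005609) was at 28.3, 8.42 and 10.6 CPM in WT MS and at 33.2, 27.2 and 25.98 CPM in WT ABA. As for Homeobox TF 41, replicate 1 was the one WT MS library at the level of WT ABA in both genes, whereas for trihelix TF 22 it was the lowest of the WT MS libraries.

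**Figure D3:**
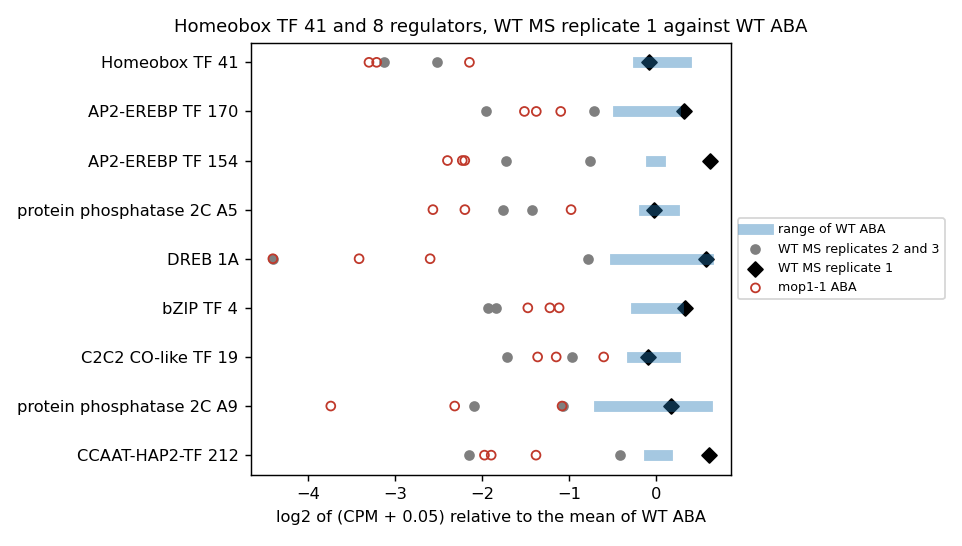
Homeobox TF 41 and the 8 other regulators named in the text, with the level in WT MS and mop1-1 ABA libraries on the horizontal axis as the log2 ratio to the mean of WT ABA after adding 0.05 CPM. Black diamonds are WT MS replicate 1, gray points the other WT MS libraries, red circles the mop1-1 ABA libraries and blue bars the range of WT ABA. The 8 were picked for this pattern, so the diamonds lie within or above the blue bars in all 9 rows, and the gray points lie to the left of them.

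In Group D, none of the 21 other regulators was a DEG, which the choice of the list favours (edgeR quasi-likelihood test, lowest adjusted p = 0.127, with 5 at an unadjusted p under 0.05 beside 10.2% of all features). Their log2 fold changes were negative in 18 and positive in 3, with a median of -0.47 beside -0.0045 over all features. Without WT MS replicate 1, an omission chosen after seeing the data, 12 were negative and 9 positive, the median was -0.11, and again 0 were DEGs, with 4 at an unadjusted p under 0.05. The value of trihelix TF 22 in Group D, -0.59, was thus near the median of the list on all libraries and farther from it without replicate 1, at -0.72.

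In Group C, which the study used for this list and which is therefore given without a test, 17 of the 21 were negative and 4 positive, with a median of -1.19 beside 0.015 over all features, and all 21 had groups that did not overlap (17 lower and 4 higher in mop1-1, beside 12.4% and 12.5% of all features). Homeobox TF 41, at -2.79, lay beyond all of the negative values but that of DREB 1A, a low gene at -4.18 (standard error 1.42). NAC TF 13 (Zm00001d017084), one of the 4 with positive values, was higher in mop1-1 by 2.05 on the log2 scale (standard error 0.391). In the study's table the direction of these genes, too, is marked the other way round.

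The other regulators include 4 PP2C genes and a bZIP gene. PP2C A5 had log2 fold changes of -1.75 in Group C and -1.002 in Group D (standard errors 0.468 and 0.461), and PP2C A9 had -2.01 and -0.46 (0.646 and 0.622). The values of bZIP TF 4 were -1.27 and -0.36 (0.584 and 0.576). PP2C 26 had -1.28 and -0.22 (0.335 and 0.330) and PP2C 32 had -1.06 and -0.55 (0.246 and 0.244). All 5 were negative in both comparisons on all libraries. Without WT MS replicate 1 the Group D value was 0.79 for bZIP TF 4 (standard error 0.435) and 0.33 for PP2C A9 (0.615), both turned in direction, and -0.28 for PP2C A5 (0.383), while PP2C 26 and PP2C 32 stayed negative, at -0.36 and -0.69 (0.364 and 0.259). WRKY TF 36, which had the smallest p of the list in Group D, went the other way, with 1.47 in Group C and 1.49 in Group D (standard errors 0.393 and 0.389, adjusted p in Group D = 0.127, edgeR quasi-likelihood test).

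**Figure D4:**
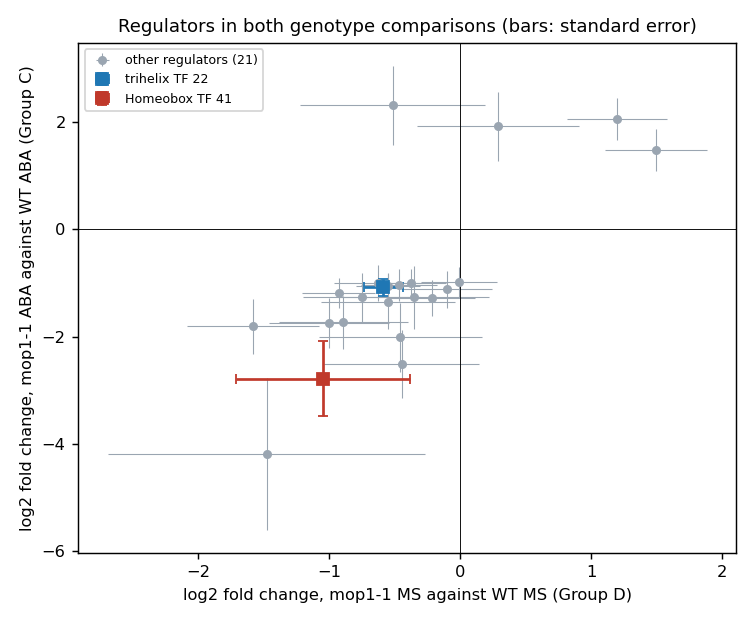
Log2 fold change in Group D (mop1-1 MS against WT MS, horizontal axis) and in Group C (mop1-1 ABA against WT ABA, vertical axis) of trihelix TF 22, Homeobox TF 41 and the 21 other regulators tested, with standard errors as bars. The comparisons share no library, but both lists of values rest on the same choice of genes by Group C; trihelix TF 22 lies at -0.59 and -1.09 among the other regulators, and Homeobox TF 41 at -1.05 and -2.79 has wide bars on both axes.

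The genes whose profile was most like each of the pair were found by the Pearson correlation of log2 CPM over the 12 libraries, among 14162 annotated genes with a mean of at least 5 CPM. The 12 points share their groups and their libraries, and the correlations are a description. For trihelix TF 22 the likest were Zm00001d030303 (r = 0.970), Zm00001d008929 (0.940), Zm00001d042926 (0.935), Zm00001d022190 (0.930) and Zm00001d007290 (0.928). The likest with a name was rpl30, a ribosomal protein gene, in place 16 with r = 0.895. Zm00001d030303 was at 61.0, 72.7 and 60.9 CPM in WT MS, with a mean of 97.4 ± 6.54 CPM in WT ABA, and in mop1-1 of 55.2 ± 1.82 CPM with MS and 55.6 ± 1.34 CPM with ABA (SD, n = 3). It thus had the same order of groups as trihelix TF 22, with a smaller range.

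For Homeobox TF 41 the likest were Zm00001d020631 (r = 0.982), Zm00001d010653 (0.979), Zm00001d015767 (0.967), Zm00001d025903 (0.965) and Zm00001d012720 (0.964). The likest with a name was PP2C A5, in place 8 with r = 0.9504, and bZIP TF 4 had r = 0.908. Zm00001d020631 was at 33.7, 5.60 and 4.197 CPM in WT MS, with a mean of 39.8 ± 6.38 CPM in WT ABA, and in mop1-1 of 7.29 ± 2.41 CPM with MS and 5.005 ± 1.37 CPM with ABA (SD, n = 3). In 4 of the 5 genes most like Homeobox TF 41, WT MS replicate 1 stood at or above the lowest WT ABA library, which the choice of genes by a correlation over libraries that include it favours. When likeness was measured by Spearman's rho, 0 of these 5 remained among the first 5 for Homeobox TF 41 and 2 of 5 for trihelix TF 22.

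**Figure D5:**
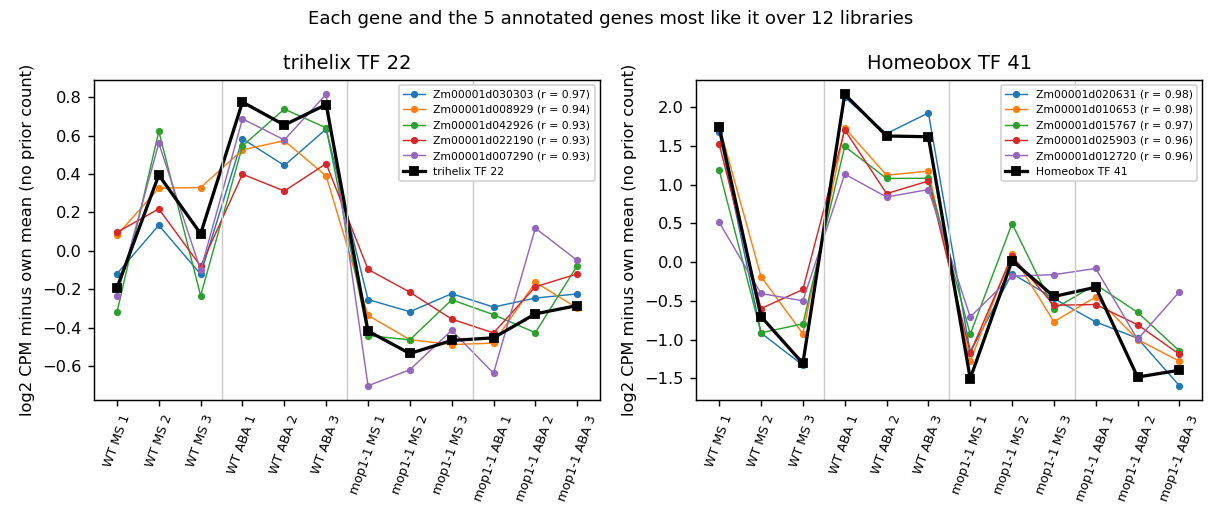
Log2 CPM minus the gene's own mean over the 12 libraries (vertical axis) in each library (horizontal axis) for trihelix TF 22 (left, black) and Homeobox TF 41 (right, black), each with the 5 annotated genes most like it in color and their Pearson r. The left panel has its highest values in the 3 WT ABA libraries, and the right panel has 4 libraries high, WT ABA and WT MS replicate 1.

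Between trihelix TF 22 and Homeobox TF 41 the Pearson correlation of log2 CPM over the 12 libraries was 0.64, and -0.71 once the mean of each group was subtracted. The sign thus differed between the pattern over groups and the deviations within them. WT MS replicate 1 was the highest WT MS library in Homeobox TF 41 and the lowest in trihelix TF 22.

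The genes next to the pair were examined for the same comparisons. Of the 3 genes before and the 3 after each in identifier number, 10 of 12 were tested, and none was a DEG in Group C or Group D by the edgeR quasi-likelihood test (with 2 and 0 at an unadjusted p under 0.05), beside 1.19% and 0.905% of all features called and 16% and 10.2% at an unadjusted p under 0.05. With 10 genes these counts are near the shares over all features. Their log2 fold changes were -0.60 to 0.50 in Group C and -0.11 to 0.96 in Group D. Next to trihelix TF 22, Zm00001d014937 was at 0.05 in Group C and 0.02 in Group D (standard error 0.120 in both). Next to Homeobox TF 41, Zm00001d017423 was at -0.39 and -0.07 (standard error 0.239 in both). By the RefSeq genes matched on either side in identifier order, both lie on a chromosome other than that of mop1.

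Relatives could be identified only by alias, and so only in small part. Aliases were reached only through genes in the study's supplementary list of DEGs for its ABA-treated samples. The relatives here and the markers below are therefore not a neutral sample to set beside the shares over all features. Of 4 homeobox genes, 3 were tested (HB53, HB128 and knox7, a KNOX gene), and gt1, an HD-Zip gene that represses lateral bud growth, fell below the filter. All 4 trihelix genes (THX3, THX4, THX23 and THX39) were tested. None of the 7 was a DEG in Group C or Group D (edgeR quasi-likelihood test, with 1 and 0 at an unadjusted p under 0.05). The shares of all features are given above for the neighbours. Since the 7 were reached through a list of DEGs, nothing is read from these counts. The median log2 fold change was -0.27 for the homeobox and -0.29 for the trihelix genes in Group C, and -0.16 and -0.11 in Group D. THX39 was at 68.5 ± 0.496 CPM (MS) and 65.6 ± 4.94 CPM (ABA) in WT, and at 72.0 ± 1.96 CPM (MS) and 74.3 ± 2.87 CPM (ABA) in mop1-1 (SD, n = 3).

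Markers of the tissue were looked at beside these values. The photosystem genes psbs1 and psad1 summed to 2175 to 2871 CPM (MS) and 2139 to 3060 CPM (ABA) in WT, and to 1914 to 2499 CPM (MS) and 1877 to 2228 CPM (ABA) in mop1-1. The root genes ZmCASP1, of the Casparian strip, and nas2, a nicotianamine synthase gene, were below the filter, with at most 15 and 5 counts over a group. The photosystem sums overlapped between all groups.

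Histone genes, which are expressed most in dividing cells, were lower in mop1-1 ABA than in WT ABA, the direction by which the pair was chosen. Cyclin-B genes and the proliferating cell nuclear antigen gene had also been planned as markers of division and were not examined. The histone genes therefore do not stand for cell division as a whole. The summed level of 4 of them (his2b5, histone2b1, H4C7 and the centromeric cenH3) was 341 to 404 CPM in WT ABA, against 190.2 to 288 CPM in WT without the hormone and, for mop1-1, 198 to 238 CPM (MS) and 163 to 279 CPM (ABA). All 4 had lower levels in mop1-1 ABA than in WT ABA with groups that did not overlap, as 12.4% of all features did, and a median log2 fold change of -0.68 in Group C and -0.18 in Group D, though 0 of 4 were DEGs (edgeR quasi-likelihood test, lowest adjusted p = 0.0507 and 0.257 respectively, with 4 and 1 of the 4 at an unadjusted p under 0.05 beside 16% and 10.2% of all features). Their part in the values of trihelix TF 22 and Homeobox TF 41 was not tested.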

How the data were processed

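The data were the gene counts that the authors deposited for the 12 libraries, in whole numbers and not normalized. According to the methods and the submitters' processing notes, reads (150 bp) passed quality control in fastp 0.21.0 and adapter trimming and were mapped to B73 version 4 with HISAT2 2.2.1 and quantified by StringTie 2.1.4, whose gene counts are computed from coverage. Use of strand in counting is not given in the sources used here, so reads of an overlapping antisense gene could not be told apart.

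Features with at least 0.58 CPM in at least 3 libraries were normalized by TMM and fitted in edgeR 4.0.16 (R 4.3.3) with the quasi-likelihood model and 4 group means. P-values were two-sided and adjusted over the 26401 features, and the standard error was the log2 fold change divided by the square root of F. Libraries differed between replicates by more than sampling noise (chi-square per degree of freedom 30.6 to 186). The procedure was tested on simulated data. P-values set a difference between groups against the spread between libraries, which was estimated over the 4 groups and moderated across features. Counting errors cover counting alone. They take each count as an independent event and may be too small for counts computed from coverage.

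Log2 CPM for correlations used a prior count of 2. The genes and lists were chosen with earlier results of these data known. Named were the pair, the 5 genes most like each and the likest with a name, 3 neighbours on either side, the regulators of the homeobox, trihelix, bZIP and PP2C kinds and then that of smallest p in Group D, up to 4 relatives of each family, and markers. Other regulators, such as NAC TF 13, DREB 1A and those high in WT MS replicate 1, were named after their values were seen. Names came from the study's tables and RefSeq, joined through the study's list of DEGs. Relatives and markers were picked by alias from that pool after the files had been seen. Other markers planned for photosynthesis, cell division and the ABA response were not examined as lists. Alternatives were RLE, no filter, filterByExpr, the 6 libraries of a comparison, the exact test, DESeq2 1.42.0, a replicate block, annotated genes alone, no fold threshold, each library left out in turn, Spearman's rho and a prior count of 0.5. The mop1 gene, promoter motifs and protein sequences were not analysed here.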

Additional observations from a re-analysis of the deposited data

How the results depend on the processing

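Over the 5 comparisons of both genes, 190 of 196 values under an alternative held. In Group D this meant the same direction and the same side of an adjusted p of 0.05, with no check of size. In the other comparisons it meant the same direction and a change in size smaller than the replicate spread. Of the 6 others, 5 came from leaving out WT MS replicate 1 or 2 and 1 from DESeq2. For Homeobox TF 41, leaving out 1 library gave -0.92 to -0.08 in Group A, 0.85 to 2.80 in Group B, -3.26 to -2.58 in Group C, -1.49 to 0.46 in Group D and -3.25 to -1.30 in Group C minus Group D, and the values without WT MS replicate 1 were 2.80, 0.46 (adjusted p = 0.798) and -3.25 in Groups B, D and C minus D. For trihelix TF 22 the ranges were 0.08 to 0.17, 0.48 to 0.78, -1.12 to -1.04, -0.72 to -0.43 and -0.66 to -0.36, with -0.66 in Group C minus Group D without WT MS replicate 2. Its adjusted p in Group D was 0.0200 with DESeq2 (log2 fold change -0.59), 0.0368 without WT MS replicate 1 (-0.72), and 0.0200 to 0.411 over all alternatives, and that of Homeobox TF 41 was 0.332 to 0.908.

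The number of DEGs in Group D was 239. It was 156 with the 6 libraries of the comparison, 549 with the exact test and 636 with DESeq2. With annotated genes alone, which leaves out the assembled loci, it was 85. Without 1 library it was 171 to 449, with 449 without WT MS replicate 3. Samples of the same replicate number did not deviate together (correlations -0.162 to 0.0877), and with the replicate block Group D had 188 DEGs and values of -0.58 for trihelix TF 22 (adjusted p = 0.200) and -0.50 for Homeobox TF 41 (0.908). The median of the other regulators in Group D was -0.47, and -0.11 without WT MS replicate 1, an omission chosen after seeing the data. With Spearman's rho, 2 and 0 of the 5 likest genes were kept for trihelix TF 22 and Homeobox TF 41, and with a prior count of 0.5 all 5 were kept for both. With 3 libraries a group, Homeobox TF 41 had a biological coefficient of variation of 0.543. Its standard error in Group D was 0.663 on all libraries and 0.438 without WT MS replicate 1. Whether more depth would change its values was not tested.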

Other observations

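Genes with a profile opposite to the pair were looked up after the values were seen. Over the 12 libraries the most opposite to trihelix TF 22 were Zm00001d035253 (Pearson r = -0.94) and Zm00001d043907 (-0.93), and the most opposite to Homeobox TF 41 were Zm00001d010988 (-0.95) and Zm00001d041510 (-0.90). Zm00001d010988 was at 18.0, 31.3 and 44.2 CPM in WT MS. Replicate 1, the highest of these libraries in Homeobox TF 41, was thus the lowest here. The choice of this gene by a correlation over libraries that include replicate 1 favours that. None of these genes had a name in the tables used.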
